A study of Homo sapiens with 6 samples.

Results

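The 10 genes described here encode 4 actins (ACTA2, ACTB, ACTG1 and ACTG2), the 4 tropomyosins (TPM1, TPM2, TPM3 and TPM4), transgelin (TAGLN) and calponin 1 (CNN1). They were chosen by name, with earlier results of these data known. They are the rows whose Ensembl ID carries these symbols, 10 of the 38900 gene IDs in the table. RNA was sequenced after polyA selection from hTERT RPE1, 1 immortalized human line that began as retinal pigment epithelium. All cultures were held at full confluency for 5 days to make them quiescent and then received fresh medium for 6 hours, with 100 nM combretastatin A4 (CA4) in 3 libraries and with 0.1% DMSO, the solvent, in 3. CA4 binds tubulin and depolymerizes microtubules, so the comparison asks how transcripts of the actin cytoskeleton stand in nondividing cells after microtubules are lost. The labels do not say that replicates came from separate cultures, so each p-value measures the spread between these libraries, which may be technical.

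Actin monomers join into filaments that carry contractile force and cell shape. ACTB and ACTG1 encode the beta and gamma actins found in every cell type, while ACTA2 and ACTG2 encode the alpha and gamma actins of smooth muscle, and ACTA2 is also a marker of contractile fibroblasts. Tropomyosins lie along the actin filament and govern which proteins reach it, and each tropomyosin gene makes several isoforms by alternative starts and splicing. Transgelin and calponin 1 bind actin filaments and are classic markers of the smooth-muscle contractile program. Many of these genes are targets of serum response factor (SRF), a transcription factor that binds a short DNA element called the CArG box. Its cofactors of the MRTF family are held by free actin monomers and released when monomers are used up in filaments.

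Of the 10 genes, ACTG1, ACTG2 and TPM4 rose after CA4 in limma's test over all genes. ACTG2 rose most of these, from 741 ± 221 to 1482 ± 66.3 normalized counts, against 129135 ± 4272 to 173502 ± 2770 for ACTG1 and 40474 ± 2494 to 52247 ± 901 for TPM4 (mean ± SD, n = 3). A normalized count is a gene's reads divided by a scaling factor of its library, as deposited. Another 3 genes, ACTB, TAGLN and CNN1, had all 3 CA4 libraries above all 3 DMSO libraries but missed the threshold, an adjusted p of 0.05. ACTA2, TPM1, TPM2 and TPM3 overlapped between the groups. The 3 of 10 called higher stood beside 2.97% of all 13928 tested genes called higher (4.94% were called in either direction), and the 6 of 10 without overlap beside 14.3% of tested genes whose CA4 libraries all lay above DMSO. All 10 had fitted values above 0, although TPM1 turned to -0.030 after quantile normalization, and 48.9% of all tested genes lay above 0. Their median log2 fold change was 0.35 against -0.008 for all tested genes. These shares describe the 10 genes and are not a test of them as a group.

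The libraries held 19524936 to 22538004 reads each, and the replicates of a group correlated at 0.961 to 0.967 across genes, which are not independent replicates. Of the 12 markers of retinal pigment epithelium, 7 reached 10 normalized counts in a library, TTR was listed at 0 in all 6, and RPE65 had a mean of 27.5 in DMSO and 16.0 in CA4 (adjusted p = 0.347 in limma). BEST1 averaged 77.3 and 72.5, PMEL 15.6 and 18.7, and SERPINF1 14.6 and 16.8. OTX2, a transcription factor of this lineage, fell from 533 to 244 (adjusted p = 0.0158 in limma), and MITF, a regulator of pigment cells, averaged 885 and 457 (adjusted p = 0.100 in limma). The summed level of that list was 1147 to 1885 in DMSO and 660 to 1069 in CA4, most of it MITF and OTX2. The 6 mesenchymal markers summed to 169449 to 181443 in DMSO and 157745 to 176205 in CA4, most of it VIM and COL1A1, while COL1A2 averaged 31.5 and 26.7. The 4 markers of simple epithelium summed to 22545 to 25480 in DMSO and 25984 to 31429 in CA4, nearly all of it KRT8 and KRT18. The 7 markers of striated muscle summed to 349.6 to 985 in DMSO and 375 to 765 in CA4, with MYH7 at 0 in all libraries. In the smooth-muscle marker list, MYOCD, the cofactor that defines that lineage, was listed at 0 in every library and DES reached at most 16.4 normalized counts. The sum of that list was 8151 to 8911 in DMSO and 13910 to 14591 in CA4, nearly all of it LMOD1 and SMTN. Leukocyte markers summed to at most 10.6 normalized counts, with CD3E at 0. The part of any marker list in the values of the 10 genes was not tested. In bulk RNA, fewer cells of a type and less RNA per cell cannot be told apart.

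RefSeq windows from 250 bases before to 50 bases after a start were at hand for 8 of the 10 genes, 13 windows in all (GRCh38.p14), and ACTB and TAGLN were not searched. The CArG box was searched as CC, then 6 bases each A or T, then GG, a pattern that reads alike on both strands, and no other motif was searched. It was found without mismatch in windows of ACTG1, ACTG2 and TPM4, and in 454 of all 35116 windows (1.29%). With at most 1 mismatch it was found in 6 of the 13 windows and in 18.9% of all windows. The stretches around these boxes are printed 5′ to 3′ on the gene's strand, with the boxes in capitals, because they are the element through which SRF is known to act. The ACTG1 stretch lies at chr17:81512874-81512903 on the minus strand, the ACTG2 stretch at chr2:73892888-73892954 on the plus strand, and the TPM4 stretch at chr19:16067338-16067506 on the plus strand. The ACTA2 stretch, at chr10:88952774-88952973 on the minus strand, is shown for its 2 boxes with 1 mismatch each.
ACTG1: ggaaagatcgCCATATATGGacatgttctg
ACTG2: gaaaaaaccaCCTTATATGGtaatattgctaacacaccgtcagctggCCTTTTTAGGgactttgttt
TPM4: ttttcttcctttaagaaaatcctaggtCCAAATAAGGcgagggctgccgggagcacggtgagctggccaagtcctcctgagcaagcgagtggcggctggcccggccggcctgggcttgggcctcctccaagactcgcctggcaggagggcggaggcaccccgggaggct
ACTA2: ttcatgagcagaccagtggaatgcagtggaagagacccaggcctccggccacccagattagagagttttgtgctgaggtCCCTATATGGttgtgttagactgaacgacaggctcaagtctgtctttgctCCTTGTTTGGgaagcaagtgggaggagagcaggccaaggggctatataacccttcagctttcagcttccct
The box of ACTG1 begins 94 bases before its start, those of ACTG2 110 and 73 bases before, that of TPM4 173 bases before, and those of ACTA2 121 and 71 bases before. The ACTA2 and TPM4 stretches hold no exon base of their gene in GENCODE 29, whereas 18 of the 30 bases shown for ACTG1 and 11 of the 67 shown for ACTG2 lie in exons of other transcripts of the same gene. Among the 8 genes searched, the 3 with a box free of mismatches are the 3 that passed the threshold, a match seen after the values were known and not tested. With the 10 genes left out, 10 of 168 tested genes with such a box were called higher (5.95%) and 1 lower, against 315 higher (3.04%) and 222 lower of the 10353 tested genes with a window. The median log2 fold changes were 0.0070 and -0.014, and the difference was not tested. A match is a description of the letters in these windows, and counts per gene do not tell which start was used.

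The cytoplasmic actins ACTB and ACTG1 took 0.798% ± 0.0356 and 0.628% ± 0.0257 of all normalized counts in DMSO (mean ± SD, n = 3). ACTB (ENSG00000075624, chr7:5527147-5563784, minus strand, GRCh38) was read at 171054, 159579 and 161576 normalized counts in DMSO, for replicates 1, 2 and 3 in turn, and at 201137, 212422 and 201331 in CA4. Each CA4 library lay above each DMSO library, and the replicates lay close together. The mean went from 164070 ± 6131 to 204963 ± 6460 (mean ± SD, n = 3), 1.25 times, and the log2 change of 0.32 (± 0.09 SE, 95% interval 0.11 to 0.53) had an adjusted p of 0.0859 in limma, above the threshold. It passed when edgeR or DESeq2 was run on reads recovered from the table, where they called 2.8% and 6.92% of tested genes higher. Its log2 change was 0.22 with each library at 1 total (adjusted p = 0.187 in limma) and 0.12 after quantile normalization (0.401).

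ACTG1 (ENSG00000184009, chr17:81509971-81523847, minus strand) had 134036, 126201 and 127167 normalized counts in DMSO and 170389, 175695 and 174422 in CA4, again without overlap. Its replicates were the tightest of the 10 genes, with a pooled SD of 0.037 on the log2 scale. It rose 1.34 times between the group means, a log2 change of 0.43 (± 0.09 SE, 95% interval 0.23 to 0.63, adjusted p = 0.0365 in limma). The size held between 0.41 and 0.45 with any 1 library left out, but the call remained in 1 of those 6 fits, the one without DMSO replicate 1. Without any other library the adjusted p lay between 0.0998 and 0.136. After quantile normalization the log2 change was 0.22 (adjusted p = 0.253 in limma), and the call was also lost with each library at 1 total (0.33, adjusted p = 0.0710) and with no filter on low values (adjusted p = 0.109).

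In GENCODE 29, 4.84% of the 50-base words of ACTB and 2.30% of those of ACTG1 occur in some other gene, but only 0.252% and 0.292% in another of the 10 genes. Their processed copies took few reads. The 11 ACTB copies in the table summed to at most 20.1 normalized counts in a library and the 20 ACTG1 copies to at most 20.3. All 44 listed copies of the 10 genes came to at most 0.0158% of the reads of the genes themselves.

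Of the smooth-muscle actins, ACTG2 (ENSG00000163017, chr2:73892314-73919865, plus strand) had 738, 523 and 964 normalized counts in DMSO and 1437, 1451 and 1558 in CA4. The CA4 libraries lay close together and well above the DMSO libraries, which were spread widely. The log2 SD was 0.44 in DMSO and 0.064 in CA4. It doubled, with a ratio of means of 2.00 and a log2 change of 1.04 (± 0.20 SE, 95% interval 0.57 to 1.51, adjusted p = 0.0336 in limma). It passed under each of the 3 other scalings between libraries, but of the 6 fits without a library only those without DMSO replicate 1 and without DMSO replicate 3 kept the call. The others had adjusted p-values of 0.0592 without DMSO replicate 2 and 0.0696 to 0.111 without a CA4 replicate, with log2 fold changes of 0.81 to 1.25 over all 6.

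ACTA2 (ENSG00000107796, chr10:88935074-88991339, minus strand) had 36398, 33623 and 52229 normalized counts in DMSO and 40054, 47237 and 63242 in CA4. Replicate 3 was the highest in both groups, and the lower CA4 libraries fell within the DMSO range. The mean was 40750 ± 10038 in DMSO and 50178 ± 11870 in CA4 (mean ± SD, n = 3). The log2 change of 0.30 (± 0.21 SE, adjusted p = 0.444 in limma) had a 95% interval of -0.19 to 0.79, which holds both no change and a change as large as that of ACTG1. It moved to 0.12 when CA4 replicate 3 was left out, to 0.18 for DMSO replicate 2 and to 0.49 for DMSO replicate 3. In GENCODE 29, 17.3% of its exon bases overlap ACTA2-AS1 and 12.8% overlap FAS, both on the opposite strand. Whether the counting used strand is not given in the sources used here, so reads of these genes may not be told apart.

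**Figure D1:**
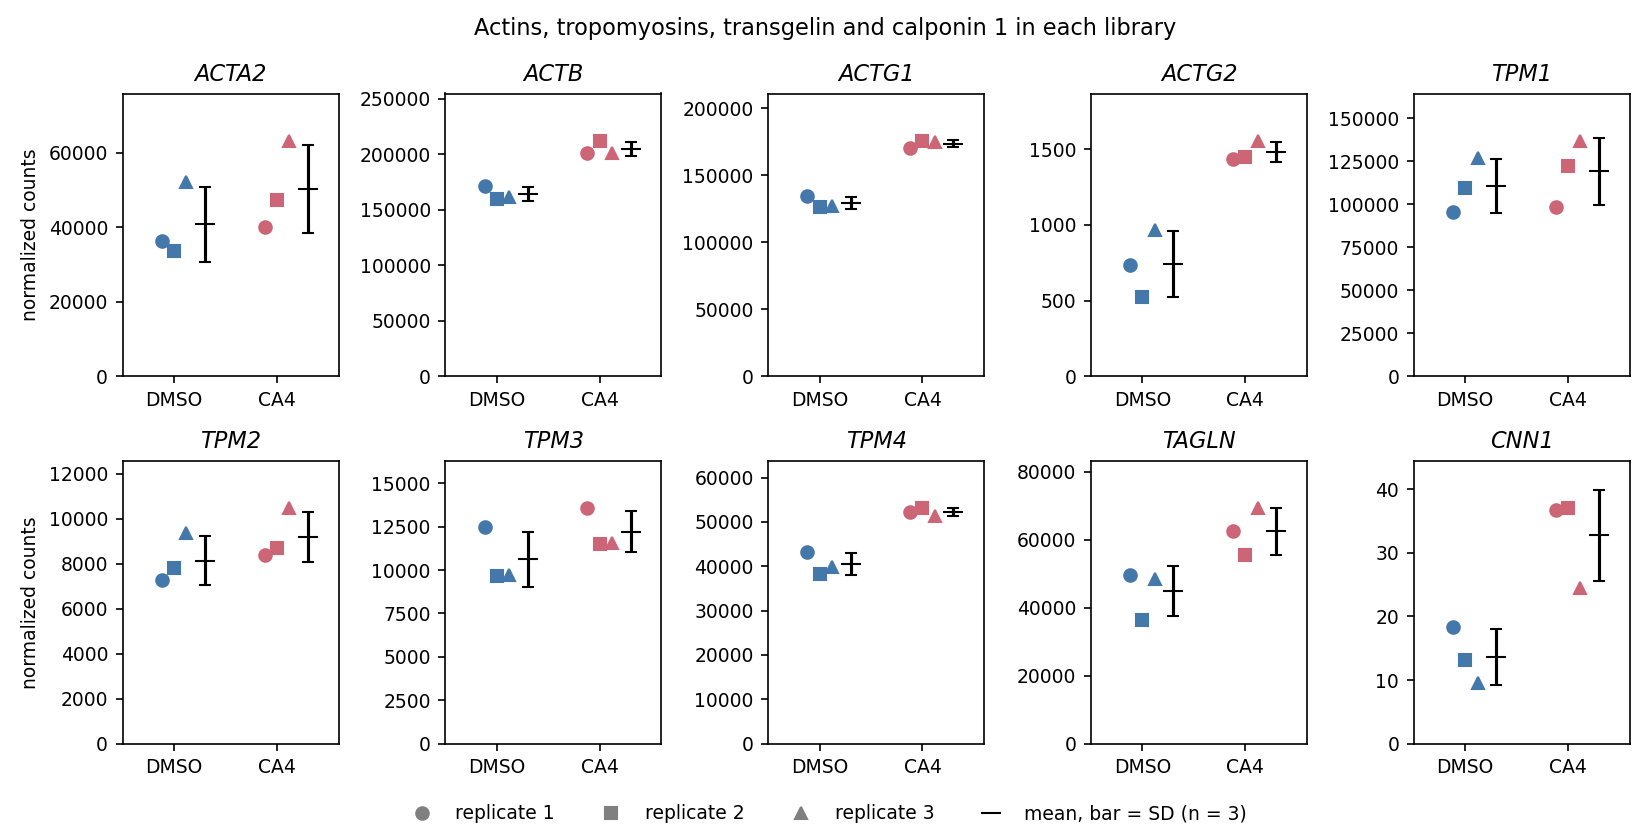
Normalized counts (vertical axes, each from 0) of the 10 genes in the 3 DMSO (blue) and 3 CA4 (red) libraries, with marker shapes for replicates 1 to 3 and black bars for the mean and SD. The CA4 points lie wholly above the DMSO points for ACTB, ACTG1, ACTG2, TPM4, TAGLN and CNN1, and overlap them for ACTA2, TPM1, TPM2 and TPM3.

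Among the tropomyosins, TPM4 (ENSG00000167460, chr19:16067021-16103005, plus strand), a tropomyosin of nonmuscle cells, had 43204, 38315 and 39902 normalized counts in DMSO and 52280, 53131 and 51329 in CA4. Each CA4 library was higher than each DMSO library, and the CA4 libraries spanned less than the DMSO libraries. It rose 1.29 times, a log2 change of 0.37 (± 0.08 SE, 95% interval 0.18 to 0.56, adjusted p = 0.0452 in limma). As for ACTG1, the fit without DMSO replicate 1 was the 1 of 6 that kept the call. The other 5 had adjusted p-values of 0.109 to 0.158, with log2 fold changes of 0.33 to 0.42 over all 6. The call was lost under all 3 other scalings, with a log2 change of 0.34 at the same 75th percentile (adjusted p = 0.0530 in limma), 0.27 at the same total (0.102) and 0.23 after quantile normalization (0.162), and with no filter on low values (0.0918). In GENCODE 29, 9.60% of its exon bases overlap AC008894.3 on the opposite strand, and 7.14% of its 50-base words also occur in other genes.

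TPM1 (ENSG00000140416, chr15:63042632-63071915, plus strand) had 95707, 109711 and 127189 normalized counts in DMSO and 98450, 122328 and 137096 in CA4. The groups overlapped almost fully, with replicate 1 lowest and replicate 3 highest in both. Its log2 change of 0.10 (± 0.16 SE, adjusted p = 0.745 in limma) was the smallest of the 10, with a 95% interval of -0.26 to 0.46. The sign was not stable, since the value was -0.030 after quantile normalization, 0.0006 with all libraries brought to 1 total and -0.0050 without CA4 replicate 3. In GENCODE 29, 16.1% of its exon bases overlap TPM1-AS on the opposite strand.

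TPM2 (ENSG00000198467, chr9:35681992-35690121, minus strand), which encodes beta tropomyosin, went from 8140 ± 1072 normalized counts to 9186 ± 1122 (mean ± SD, n = 3). TPM3 (ENSG00000143549, chr1:154155304-154194648, minus strand), which encodes a slow-muscle form and several nonmuscle forms, went from 10613 ± 1605 to 12213 ± 1177 (mean ± SD, n = 3). Both overlapped between groups. The DMSO libraries of TPM2 had 7284, 7794 and 9343 normalized counts and the CA4 libraries 8400, 8687 and 10471, so replicate 3 was highest in both, as for ACTA2 and TPM1. For TPM3 they had 12465, 9678 and 9694 in DMSO and 13572, 11515 and 11553 in CA4, with replicate 1 highest in both. The log2 fold changes were 0.18 (SE 0.12, adjusted p = 0.446 in limma) for TPM2 and 0.21 (SE 0.12, adjusted p = 0.361 in limma) for TPM3. Their 95% intervals, -0.11 to 0.46 and -0.08 to 0.50, contain the value of TPM4. Single libraries moved both values, that of TPM2 to 0.078 when CA4 replicate 3 was left out, 0.099 for DMSO replicate 1 and 0.28 for DMSO replicate 3, and that of TPM3 to 0.13 without CA4 replicate 1 and 0.33 without DMSO replicate 1. The 4 tropomyosin genes have 17, 6, 11 and 6 coding transcripts in GENCODE 29 for TPM1 to TPM4, and a count per gene sums over them, so a switch between isoforms would not be seen.

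TAGLN (ENSG00000149591, chr11:117199321-117204782, plus strand) had 49762, 36428 and 48490 normalized counts in DMSO and 62725, 55572 and 69335 in CA4. All CA4 libraries were higher, and replicate 2 was lowest in both groups. The mean went from 44893 ± 7359 to 62544 ± 6883 (mean ± SD, n = 3), 1.39 times. The log2 change of 0.49 (± 0.14 SE, 95% interval 0.15 to 0.82) had an adjusted p of 0.0962 in limma. DESeq2 on the recovered reads called it and edgeR did not. In GENCODE 29, 11.4% of its exon bases overlap PCSK7 on the opposite strand.

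CNN1 (ENSG00000130176, chr19:11538717-11550323, plus strand) was near the limit of detection, with 19, 14 and 10 recovered reads in DMSO and 38, 33 and 22 in CA4. The groups did not overlap, and the mean normalized count went from 13.6 ± 4.45 to 32.8 ± 7.14 (mean ± SD, n = 3). The log2 fold change of 1.23 was the least precise of the 10 (SE 0.38, 95% interval 0.33 to 2.12, adjusted p = 0.111 in limma). At such counts sampling of reads alone gives a wide error, and the interval covers changes as small as that of TPM4.

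**Figure D2:**
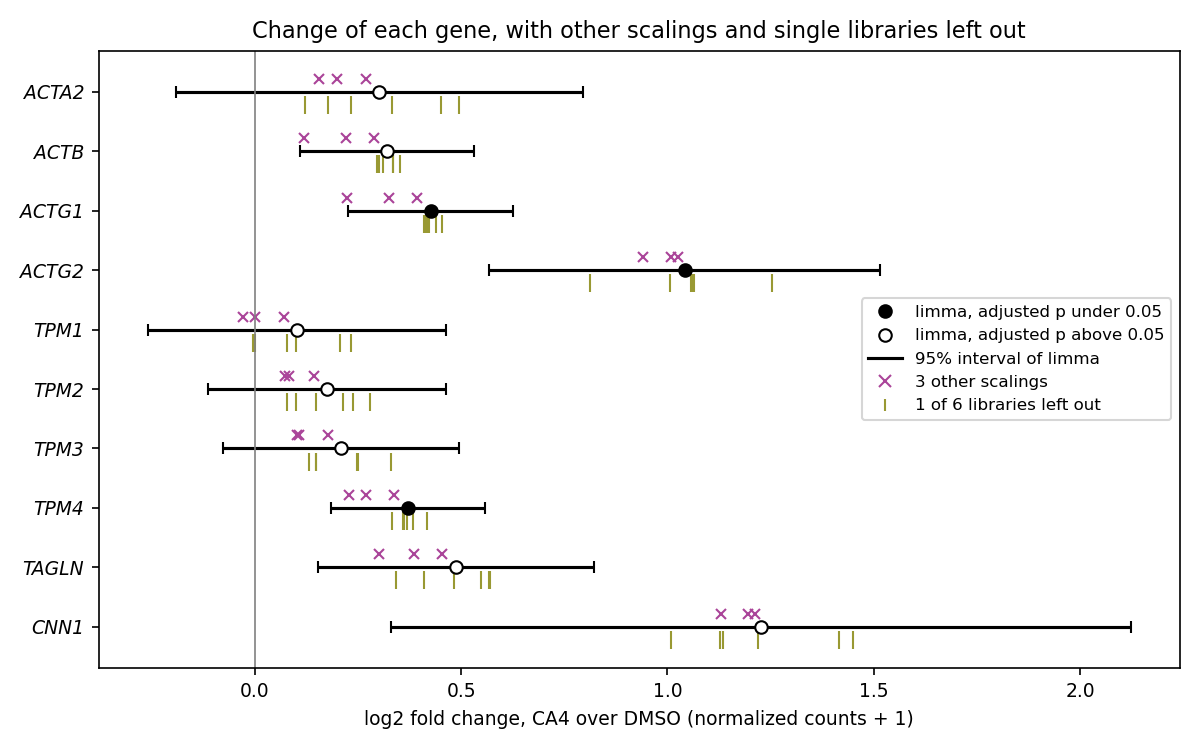
Log2 fold change of each gene, CA4 over DMSO (horizontal axis), as points with limma's 95% interval, filled where the adjusted p is under 0.05. Crosses give the 3 other scalings and short lines the 6 fits without 1 library. ACTG1, ACTG2 and TPM4 are filled, and the values of TPM1 under quantile normalization (-0.030) and without CA4 replicate 3 (-0.0050) fall below 0.

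The scaling between libraries bears on all of these values. The 10 genes together took 2.55% to 2.77% of all normalized counts in the DMSO libraries and 2.98% to 3.21% in the CA4 libraries. The 4 actins alone went from 1.63% ± 0.0590 to 1.95% ± 0.0497, and the 4 tropomyosins from 0.827% ± 0.0596 to 0.874% ± 0.0736 (mean ± SD, n = 3). Scaling each library to the same total shifted the median log2 change over the tested genes from -0.008 to -0.11. The share of calls that were higher then fell from 60.0% to 34.8%, and ACTG2 was the 1 gene of the 10 still called, where 2% of tested genes were called higher. The fitted values of all 10 genes stayed above 0 under that scaling and under 75th percentile scaling, and of 9 under quantile normalization, the exception being TPM1. Quantile normalization moved the log2 change of ACTA2 to 0.16, TPM2 to 0.082, TPM3 to 0.10 and TAGLN to 0.30. Without limma's variance trend the adjusted p was 0.0748 for ACTG1, 0.0881 for ACTG2 and 0.106 for TPM4, so none of the 3 was called.

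Levels were compared between genes per kilobase of transcript, as normalized counts divided by the median length of the gene's coding transcripts in GENCODE 29. In DMSO the order was TPM1 (100790 ± 14339), ACTB (90546 ± 3383), ACTG1 (65885 ± 2180), TAGLN (36588 ± 5998), ACTA2 (30208 ± 7441), TPM4 (16366 ± 1008), TPM2 (6875 ± 906), TPM3 (5992 ± 906), ACTG2 (504 ± 150) and CNN1 (8.36 ± 2.73) normalized counts per kilobase (mean ± SD, n = 3). TPM1 and ACTB overlapped over the libraries, as did TAGLN and ACTA2, and TPM2 and TPM3. The other neighbors in this order did not overlap. This order depends on the length used. With all exons of a gene joined, ACTB led at 46624 normalized counts per kilobase, ACTA2 at 13693 stood above TAGLN at 11461, and TPM1 fell to rank 5, at 8611. Within the smooth-muscle pair, ACTG2, which passed the test, was far below ACTA2, which did not.

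Ratios within a library do not change when a library is multiplied by 1 factor, as at the same total or 75th percentile, but they do under quantile normalization, which was not applied to them. The log2 ratio of the smooth-muscle actins (ACTA2 plus ACTG2) to the cytoplasmic actins (ACTB plus ACTG1) was -2.85 ± 0.353 in DMSO and -2.90 ± 0.325 in CA4 (mean ± SD, n = 3). The difference of -0.050 was smaller than the spread between replicates (two-sided exact permutation p = 0.7, where 0.1 is the smallest that 3 against 3 can give). In replicates 1, 2 and 3 the linear ratio was 0.122, 0.119 and 0.184 in DMSO and 0.112, 0.125 and 0.173 in CA4, so replicate 3 stood apart in both groups. This ratio is carried by ACTA2, since the mean of the log2 values, which weights ACTG2 equally, moved the other way, by 0.298 (exact p = 0.3). The log2 ratio of TPM1 plus TPM2 to TPM3 plus TPM4 was 1.21 ± 0.295 in DMSO and 0.983 ± 0.268 in CA4 (mean ± SD, n = 3), a difference of -0.23 (exact p = 0.4) with overlapping groups.

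All 12 pairs within the actins and within the tropomyosins were then compared, a step added after the values had been seen. The CA4 and DMSO libraries did not overlap in 4 of the 6 actin pairs and overlapped in all 6 tropomyosin pairs. Most of those 4 pairs share ACTG2, so they are not separate observations, and the contrast between the families was not tested. The ratio of ACTG1 to ACTB was 0.784, 0.791 and 0.787 in DMSO and 0.847, 0.827 and 0.866 in CA4. It was thus nearly constant within DMSO and higher in each CA4 library, a log2 difference of 0.11 (exact p = 0.1, adjusted 0.30 over the 12 pairs). ACTG2 gained on ACTA2 by 0.74, on ACTB by 0.72 and on ACTG1 by 0.62 on the log2 scale in libraries that did not overlap, each with an exact p of 0.1, adjusted 0.30. None of these passed the adjustment, which 3 libraries against 3 could not do here. ACTB to ACTA2 differed by 0.020 between groups (exact p = 0.9) and TPM4 to TPM1 by 0.27 (exact p = 0.3), both within the spread.

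**Figure D3:**
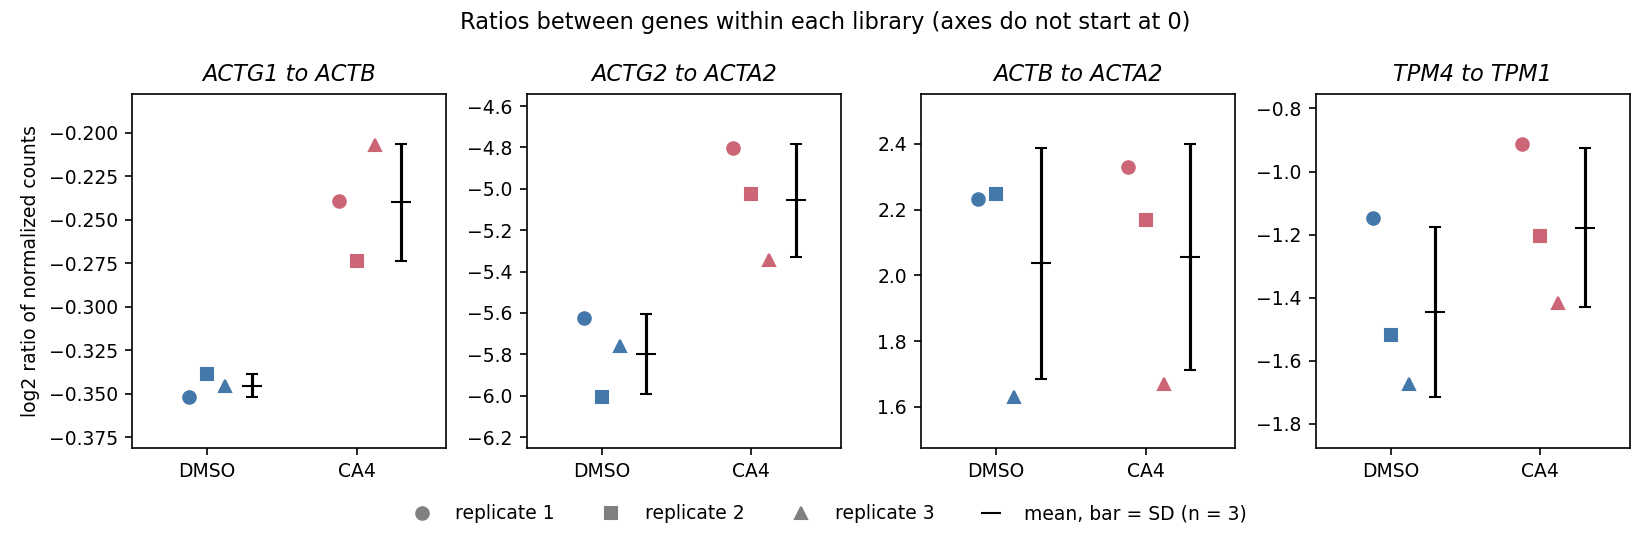
Log2 ratios of normalized counts within each library (vertical axes, not from 0) for 4 pairs of genes, with DMSO in blue, CA4 in red and black bars for the mean and SD. ACTG1 to ACTB and ACTG2 to ACTA2 are higher in all 3 CA4 libraries, while ACTB to ACTA2 and TPM4 to TPM1 overlap.

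The genes whose levels ran most like those of ACTA2, TPM1 and TAGLN over the 6 libraries were found by Pearson's r of log2 values among 11689 genes, as a description of a search over many genes in libraries that share depth and treatment. For ACTA2 they were CCDC71L (r = 0.983), ZNF468 (0.981) and POLR3B (0.976). For TPM1 they were ZNF875 (0.989), FAM228B (0.981) and ENSG00000293147 (0.981), and for TAGLN they were CCZ1B (0.996), GFRA1 (0.996) and LYSMD3 (0.995). None of these 9 genes passed limma's threshold. GFRA1 had 963, 477 and 970 normalized counts in DMSO and 1665, 1170 and 1909 in CA4, so it had the low replicate 2 that TAGLN showed in both groups.

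Relatives of these genes went both ways in the fit. Of 14 further actin, calponin, transgelin, tropomodulin and leiomodin genes, 9 were tested, 4 of them above 0 and 5 below, with a median log2 fold change of -0.016. LMOD1 and CNN3 were called higher and none lower. LMOD1, leiomodin 1, a nucleator of actin filaments in smooth muscle, had 4813, 5839 and 6222 normalized counts in DMSO and 8487, 10835 and 10810 in CA4, which do not overlap. It rose by a log2 change of 0.84 (± 0.13 SE, adjusted p = 0.0192 in limma). CNN3, a calponin of nonmuscle cells, rose from 8166 ± 447 normalized counts to 11191 ± 535 (mean ± SD, n = 3), with a log2 change of 0.45 (± 0.08 SE, adjusted p = 0.0219 in limma). LMOD1 lost its call without DMSO replicate 2, DMSO replicate 3 or CA4 replicate 3 (adjusted p 0.0615 to 0.0758), and CNN3 kept it only without DMSO replicate 1 (0.0538 to 0.0928 in the other fits). CNN2 had a log2 fold change of 0.25 (adjusted p = 0.260 in limma) and overlapping groups, and TAGLN2 had -0.016 (adjusted p = 0.952 in limma). TMOD2, a tropomodulin that caps filament ends, had 531, 797 and 761 normalized counts in DMSO and 415, 552 and 455 in CA4, which overlap, and a log2 change of -0.54 (± 0.18 SE, adjusted p = 0.134 in limma). Without DMSO replicate 1 it was called lower (-0.73, adjusted p = 0.0373). The other tested tropomodulins, TMOD1 and TMOD3, had 0.79 and -0.089 (adjusted p = 0.304 and 0.670 in limma).

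The 3 other actins on the list were not called. ACTC1, cardiac actin, had 176, 399 and 813 normalized counts in DMSO and 182, 346 and 578 in CA4, where replicates 1 to 3 differed far more than the groups. ACTA1, skeletal actin, averaged 4.10 in DMSO and 8.54 in CA4, too low to be tested. ACTBL2, an actin close to ACTB, averaged 138 ± 33.3 in DMSO and 86.0 ± 37.8 in CA4 (mean ± SD, n = 3) with overlapping groups, a log2 fold change of -0.76 (adjusted p = 0.291 in limma) that was -0.33 without CA4 replicate 1.

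In the list of SRF, its cofactors and their regulators, 15 of 16 genes were tested, 8 above 0 and 7 below, and the median was 0.029. SRF and STK38L were called higher and none lower. SRF had 3116, 2829 and 3261 normalized counts in DMSO and 4320, 4212 and 4712 in CA4, all higher in CA4. It rose by a log2 change of 0.53 (± 0.09 SE, adjusted p = 0.0207 in limma). STK38L, a kinase of the NDR family, rose from 2435 ± 496 normalized counts to 5863 ± 1318 (mean ± SD, n = 3), a log2 change of 1.26 (± 0.20 SE, adjusted p = 0.0178 in limma). The call of STK38L was lost without DMSO replicate 2 or CA4 replicate 3 (adjusted p 0.0726 and 0.0625), and that of SRF without DMSO replicate 2 or 3 or CA4 replicate 1 or 3 (0.0686 to 0.0829). MICAL2, an enzyme that oxidizes actin, had a log2 fold change of 0.55 and ELK1, a partner of SRF, 0.40, neither past the threshold (adjusted p = 0.109 and 0.104 in limma). MICAL2 did pass without DMSO replicate 1 (0.76, adjusted p = 0.0136), in DESeq2 (adjusted p = 0.0330) and with the replicate number as a block (adjusted p = 0.0230 in limma). The MRTF cofactors were among the genes below 0, MRTFB at -0.65 and MRTFA at -0.25 (adjusted p = 0.189 and 0.418 in limma).

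Of 18 smooth-muscle contractile genes listed, 17 were analysed here and 12 were abundant enough to test, with a median of 0.23. CALD1, CSRP1 and LMOD1 were called higher, none was called lower, and 9 of the 12 had values above 0. CALD1, caldesmon, which binds actin and tropomyosin, had 30941, 29638 and 34929 normalized counts in DMSO and 49505, 53473 and 58613 in CA4. It rose 1.69 times, a log2 change of 0.76 (± 0.10 SE, adjusted p = 0.0124 in limma), where the tropomyosins had 0.10 to 0.37. The call was lost without DMSO replicate 2 (adjusted p = 0.0550 in limma). CSRP1, a LIM protein of smooth muscle, rose from 14085 ± 1701 normalized counts to 23310 ± 1290 (mean ± SD, n = 3), a log2 change of 0.73 (± 0.11 SE, adjusted p = 0.0158 in limma), and lost its call without DMSO replicate 3, CA4 replicate 1 or CA4 replicate 3 (0.0512 to 0.0639).

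The widest group was the cytoskeletal targets of SRF and MRTF, of which all 32 were tested, 28 had values above 0, 12 were called higher and none lower, with a median of 0.33. The 12 became 3 without DMSO replicate 2 or 3, 4 without CA4 replicate 1 or 3, 7 without CA4 replicate 2, 7 after quantile normalization and 2 without the variance trend. The call was made for PDLIM5, TRIO, LIMA1, ZYX, ACTN1, VASP, ACTN4, MYO1E, FHL2, FERMT2, MYH9 and WDR1, in order of rising adjusted p. TRIO, a guanine nucleotide exchange factor, had 7460, 6131 and 6340 normalized counts in DMSO and 16307, 15215 and 16555 in CA4, and rose by a log2 change of 1.27 (± 0.09 SE, adjusted p = 0.00176 in limma). LIMA1, which crosslinks actin filaments, and ZYX, zyxin of focal adhesions, rose by 0.74 and 0.72 (adjusted p = 0.00841 and 0.0117 in limma). TRIO and LIMA1 kept the call in all 6 fits without a library, and ZYX lost it without DMSO replicate 2 or 3 (adjusted p 0.0545 and 0.0615). Of the 12 immediate early targets, 11 were tested, 9 had values above 0, and JUNB, NR4A1, CCN1 and DUSP1 were called higher and none lower, with a median of 0.72. JUNB, a transcription factor of the AP-1 family, was near the threshold (log2 change 0.51, adjusted p = 0.0471 in limma). It was lost under all 3 other scalings (0.0534 to 0.0727), with no filter on low values (0.0542) and in the 5 fits without a library other than DMSO replicate 1 (0.0599 to 0.158). CCN1, a secreted matrix protein, rose from 18982 ± 3889 normalized counts to 39321 ± 3255 (mean ± SD, n = 3), a log2 change of 1.07 (± 0.16 SE, adjusted p = 0.0158 in limma), and lost its call without CA4 replicate 1 or 3 (0.0584 and 0.0634). Counting each gene once, 22 of 78 tested genes of these 5 lists were called higher and 0 lower in limma. Of all tested genes, 413 were called higher (2.97%) and 275 lower (1.97%). The lists were written with earlier results of these data in view, so these shares describe them and are not a test. At an unadjusted p under 0.05 in limma, 38 of the 78 were higher and 3 lower. The share of all tested genes at that p was not counted, so this count has no background beside it. Of the 78, edgeR called 21 higher and DESeq2 29, and neither called any lower. Over all tested genes they called 2.8% and 6.92% higher.

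**Figure D4:**
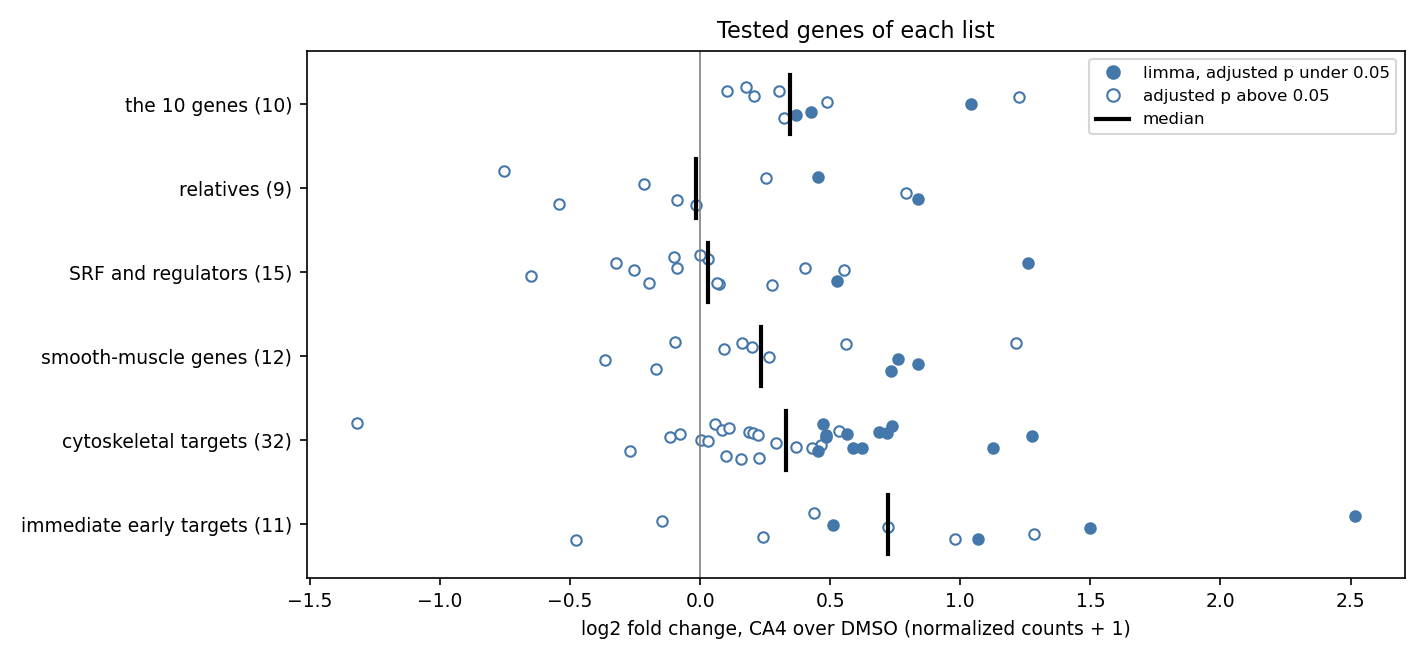
Log2 fold change of each tested gene, CA4 over DMSO (horizontal axis), for the 10 genes and 5 lists, with the number tested in brackets, filled points for a limma adjusted p under 0.05 and a black line at the median. All filled points lie to the right of 0, and the medians run from -0.016 for the relatives to 0.72 for the immediate early targets.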

How the data were processed

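The deposited table is a signal, normalized counts per Ensembl gene and library, which the authors made by dividing reads by a factor per library. In each column 100% of values were whole multiples of 1 step (tolerance 0.01), which recovered whole reads. Per the submitters' processing notes, GRCh38, Trim Galore 0.6.6, FastQC 0.12.1, Salmon 1.8.0, STAR 2.7.9a and DESeq2 1.44.0 were used. Their roles, the annotation release and the use of strand are not given in the sources used here. Of the 38900 IDs, 17103 held no read. At this depth a value of 0 allows up to 3 reads, for counting error only.

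Groups and replicate numbers came from sample titles. Genes averaging 10 or more normalized counts, 13928 in all, were tested on log2(normalized count + 1), a scale that understates changes of low genes, with limma 3.58.1 in R 4.3.3 (treatment only, variance trend). P-values are two-sided and Benjamini-Hochberg adjusted over all tested genes, with a threshold of 0.05, and SE is limma's moderated standard error. Ratios were compared by two-sided exact permutation tests. The labels do not say that libraries of the same number share a culture or day, so they were not treated as paired. The correlations of deviations between libraries of the same number were 0.202, 0.159 and 0.0588, all positive. Variation shared by replicates was not modeled in the main fit, and a fit with the replicate number as a block is among the alternatives.

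The 10 genes, the gene lists and the tests were chosen with earlier results of these data known. Named genes are the 10, up to 4 per list with the smallest adjusted p, any tested relative, and the 3 most like ACTA2, TPM1 and TAGLN. Other names are markers, genes called in a list, overlapping genes, MRTFA, MRTFB and ACTA1, which was below the filter. Alternatives were pseudocounts of 0.1 and 5, no filter, a mean of at least 50, 3 other scalings, no variance trend, a robust prior, a replicate block, each library left out, and edgeR 4.0.16 (quasi-likelihood, TMM) and DESeq2 1.42.0 on recovered reads. Tested on simulated data for CA4 against DMSO with 13928 genes, 200 of them changed 2-fold, limma recovered 53% with 4.50% of calls false, edgeR gave the same shares, and DESeq2 recovered 65% with 28.6% false. Gene places and overlaps are from GENCODE 29 and promoter sequences from RefSeq (GRCh38.p14).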

Additional observations from a re-analysis of the deposited data

How the results depend on the processing

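The 3 calls among the 10 genes were kept by both pseudocounts, the filter at 50 and the robust prior, but the number called was 1 with no filter, 1 after quantile normalization, 2 at the same 75th percentile (ACTG1 and ACTG2), 1 with each library at the same total, 0 without the variance trend and 5 in DESeq2, and it ran from 0 to 3 without 1 library (3 without DMSO replicate 1, 1 without DMSO replicate 3, 0 without any other). Fewer samples lower the power of those fits, and the cause of the other changes was not tested. In each of the limma fits with 0 called, 6 of the 10 had an unadjusted p under 0.05. The share of all tested genes at that p was not counted, so this count has no background beside it. With all libraries edgeR called 4 of the 10, and 2.8% of tested genes higher. Over all tested genes the 688 calls became 103 without the trend and 1613 in DESeq2, and 84 to 990 without 1 library. Of 13928 tested genes, those called higher were 346 after quantile normalization, 360 at the same 75th percentile, 279 at the same total and 51 without the trend. With no filter they were 349 of 21797. Without DMSO replicate 1 they were 604 of 13956, and without DMSO replicate 3 they were 51 of 13913. The 22 calls in the 5 lists became 4 without the trend, and 7 to 28 without 1 library. With the replicate number as a block, 7 of the 10 genes passed (ACTA2, ACTB, ACTG1, ACTG2, TPM3, TPM4 and TAGLN). That fit made 2397 calls over all tested genes and 40 in the lists, 2 of them lower, among them TMOD2 (adjusted p = 0.0185 in limma). In simulated data 10.9% of the calls of the block fit were false. Those data were drawn without any effect shared by replicates, so they cannot show how the block acts where replicates share variation.

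The difference in the smooth-muscle to cytoplasmic actin ratio turned to 0.298 with means of log2 values, and ran from -0.23 to 0.15 without 1 library, above 0 without DMSO replicate 3 (0.154) or CA4 replicate 1 (0.0827). The log2 fold change of TPM1 was -0.030 under quantile normalization and ran from -0.0050 to 0.23 without 1 library. That of ACTC1 ran from -0.78 to 0.32 without 1 library, that of TAGLN2 from -0.091 to 0.086, that of TMOD1 from 0.46 to 1.03 and that of TMOD3 from -0.18 to -0.0073. The 9 genes other than TPM1 kept their direction in every alternative in which they were tested. Depth limits only CNN1 among the 10, with 10 to 38 reads per library.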
